A study of Homo sapiens with 6 samples.

Results

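The transcripts described here are the host genes of microRNAs: long RNAs from which a microRNA is cut. The rows of the gene count table whose symbol was MIR155HG, MIR22HG, MIR17HG, MIR4435-2HG, MIR222HG, MIR210HG, MIR181A1HG, MIR3142HG or MIR100HG were taken, which gave 9 of 36601 genes. The rule goes by name and uses no measured value, but the members were chosen with earlier results of these data known. The libraries came from NK-92, a human natural killer (NK) lymphoma cell line that needs IL-2 to grow. The cells stably expressed either shCtrl, a control hairpin, or shmiR155HG, a hairpin aimed at MIR155HG, and 3 libraries were made of each. Both groups had received IL-2 at 1000 U/mL and IL-12 at 10 ng/mL for 12 h, so no unstimulated cells were part of the comparison. The sequence of the shRNA, the number of lines and whether replicates were separate cultures are not given in the sources used here, and p-values therefore measure the spread between these samples, which may be technical. The groups were compared to see which host transcripts besides the targeted gene differed when MIR155HG was silenced.

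A host gene is transcribed by RNA polymerase II as a long primary transcript. The Drosha–DGCR8 complex cuts a hairpin out of it in the nucleus, Dicer trims the hairpin to a short duplex, and 1 strand is loaded into an Argonaute protein, which it guides to mRNAs by its seed. A poly(A) library reads the spliced or unspliced long RNA and not the mature microRNA, so the values below are levels of host RNA only. In lymphocytes MIR155HG is known as an activation-induced gene, MIR3142HG as the NF-kB-driven host of miR-146a, and MIR17HG as the MYC-driven host of the miR-17-92 cluster.

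The mature sequences are shown first because they define what each transcript carries. They were taken from RefSeq (GRCh38.p14), are written 5′ to 3′, and carry the seed (bases 2 to 8) in capitals. MIR155HG (hg38 chr21:25561810-25575168, plus strand) holds the miR-155 hairpin in exon 4 of 4.
miR-155-5p: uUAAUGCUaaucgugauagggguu
miR-155-3p: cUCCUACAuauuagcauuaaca
The hairpin itself lies at chr21:25573980-25574044 of hg38 on the plus strand. It is shown as DNA with both mature arms in capitals, since these letters are part of the spliced RNA that was counted.
MIR155 hairpin: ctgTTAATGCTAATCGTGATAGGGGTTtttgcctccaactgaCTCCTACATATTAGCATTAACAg

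MIR17HG (chr13:91347686-91397592, plus strand) holds 6 hairpins in an intron of its canonical transcript, although 3 of its 16 annotated transcripts keep them within an exon. The 6 microRNAs are shown because they fall into shared-seed families: miR-17 and miR-20a have the same seed, miR-18a differs from it, miR-19a and miR-19b share another, and miR-92a has its own.
miR-17-5p: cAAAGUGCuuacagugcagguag
miR-20a-5p: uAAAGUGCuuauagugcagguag
miR-18a-5p: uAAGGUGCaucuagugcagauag
miR-19a-3p: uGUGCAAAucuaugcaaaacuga
miR-19b-3p: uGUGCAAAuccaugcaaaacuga
miR-92a-3p: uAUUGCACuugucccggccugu
MIR222HG (chrX:45745210-45770274, minus strand) and MIR181A1HG (chr1:198777861-198937471, minus strand) each carry a pair of microRNAs with 1 common seed, all 4 hairpins lying in introns of the canonical transcript.
miR-221-3p: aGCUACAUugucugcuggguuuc
miR-222-3p: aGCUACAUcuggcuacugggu
miR-181a-5p: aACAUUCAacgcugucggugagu
miR-181b-5p: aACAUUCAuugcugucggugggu
The remaining hosts are MIR22HG (chr17:1711447-1717174, minus strand) with miR-22 in exon 4 of 4, MIR3142HG (chr5:160438594-160487426, plus strand) with miR-146a in exon 2 of 2 and miR-3142 in its intron, MIR210HG (chr11:565657-568457, minus strand) with miR-210 in its intron, MIR4435-2HG (chr2:111006015-111523376, minus strand) with miR-4435 in an intron, and MIR100HG (chr11:122028325-122556721, minus strand), whose canonical transcript does not reach miR-100, let-7a or miR-125b although other transcripts span them.
miR-22-3p: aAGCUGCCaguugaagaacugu
miR-146a-5p: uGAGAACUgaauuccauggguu
miR-3142: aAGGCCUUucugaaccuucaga
miR-210-3p: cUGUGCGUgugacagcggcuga
miR-4435: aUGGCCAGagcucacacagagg
miR-100-5p: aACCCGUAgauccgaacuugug
let-7a-5p: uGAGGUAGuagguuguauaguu
miR-125b-5p: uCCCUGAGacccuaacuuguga
The 19 microRNA genes looked up lie on the strand of their host, and none of the 19 had a row of its own in the count table. RefSeq also places miR-10526 inside MIR100HG, which was not looked up. MIR155HG, MIR22HG and MIR3142HG are thus the hosts in which a microRNA is part of an exon of the canonical RNA.

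The total count was 33454786 to 39157264 per library, the lowest being shmiR155HG replicate 3, and TMM scaling factors stayed between 0.997 and 1.003. Levels are given as CPM, the count of a gene relative to the scaled total of its library. The NK identity of the line was checked on 11 markers, of which 10 passed the filter on low counts and CD7 did not. Their summed level was 3123 to 3216 CPM in shCtrl and 3448 to 3538 CPM in shmiR155HG libraries, with IL2RB, EOMES and TBX21 higher and PRF1 and NCR3 lower at an adjusted p under 0.05. T cell markers summed to 71.0 to 75.6 CPM in shCtrl and 68.6 to 78.7 CPM in shmiR155HG, nearly all from TRAC, while CD8B was at 0 and CD3G, CD4 and CD8A averaged under 0.03 CPM. B cell markers summed to 229 to 264 CPM in shCtrl and 340 to 344 CPM in shmiR155HG. Of these, PAX5 was higher in shmiR155HG (log2 fold change 0.49), whereas MS4A1 averaged at most 0.0428 CPM. Myeloid markers summed to 12.1 to 20.9 CPM in shCtrl and 10.7 to 13.9 CPM in shmiR155HG, with ITGAM lower, LYZ at or near 0 and CD14 under 0.5 CPM in both means. Erythroid and epithelial or fibroblast markers stayed under 0.12 CPM in sum. The part of these markers in the results below was not tested. Because RNA was extracted from whole cultures, fewer expressing cells and less RNA per cell cannot be told apart.

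Of the 9 host transcripts, 7 passed the filter (over 1 CPM in at least 2 libraries) and 2, MIR210HG and MIR100HG, had too few counts. MIR155HG was the 1 that passed the test at an adjusted p under 0.05. Of the 7 tested, 1 was thus called lower in shmiR155HG cells. Of all 12263 genes tested, 8.02% were called lower and 15.3% in either direction. A count of 1 in 7 is near that background. MIR4435-2HG was lower at an unadjusted p under 0.05 in edgeR's quasi-likelihood test, but not at an adjusted one. MIR155HG passed the filter only through the 3 shCtrl libraries, in which it is high, so its count gives no support beyond its own values. None of the 7 was called higher by edgeR's quasi-likelihood test, against 7.26% of all genes, and 0 were higher at an unadjusted p under 0.05 or by DESeq2, limma-voom or edgeR's exact test. The fold changes of the 7 pointed both ways, 3 below and 4 above 0, and the median over all genes tested was 0.00097 on the log2 scale. In 3 of the 7 the 2 groups did not overlap (MIR155HG, MIR4435-2HG and MIR222HG), which held for 30.8% of all genes tested. With 3 libraries a side, an exact permutation test of a single gene cannot go below 0.1, so each adjusted p given here is that of the edgeR fit over all genes.

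**Figure D1:**
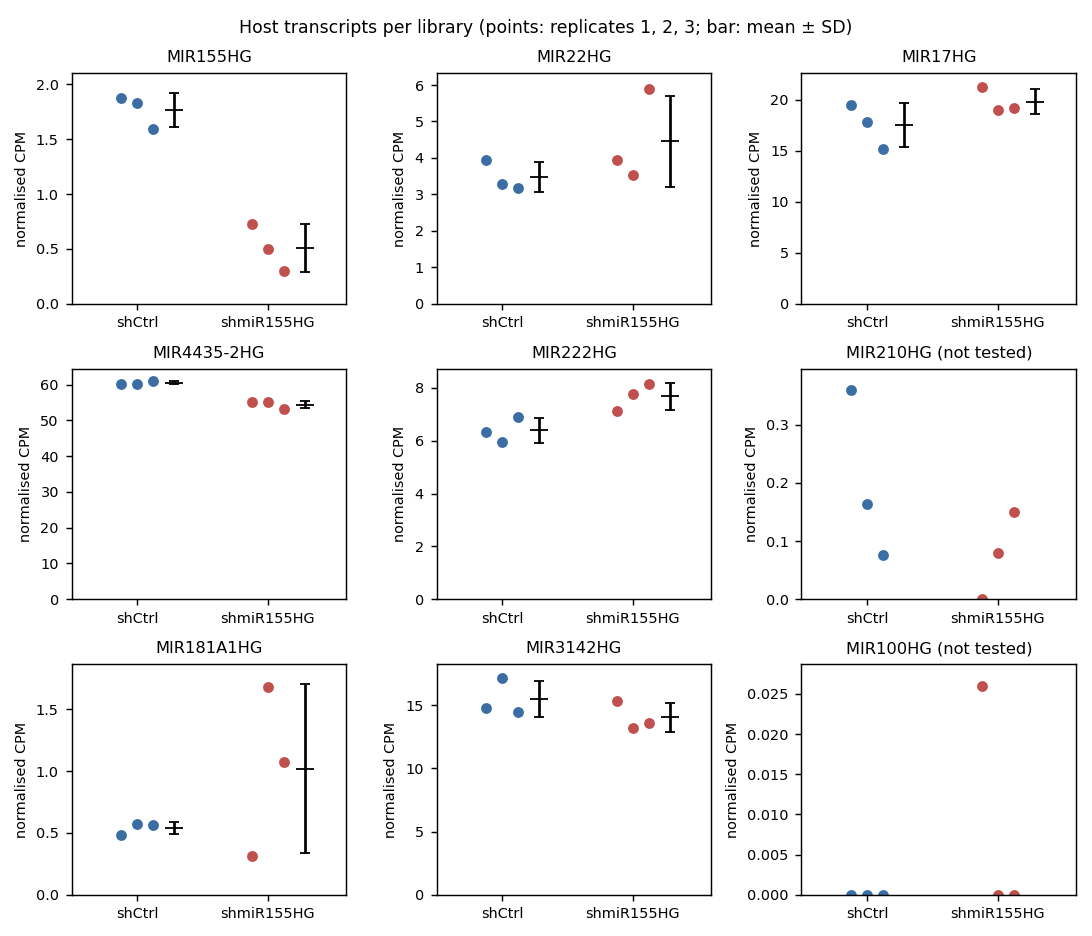
Normalised CPM (y axes, each from 0) of the 9 host transcripts in 3 shCtrl and 3 shmiR155HG libraries; points are replicates 1, 2 and 3 from left to right, and bars give mean ± SD for the 7 tested. MIR155HG lay at 1.59 to 1.87 CPM in shCtrl and 0.299 to 0.729 CPM in shmiR155HG, while a single library stood high for MIR22HG and the shmiR155HG libraries were spread widely for MIR181A1HG.

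MIR155HG, the gene the shRNA targets, is the host of miR-155 and also functions as a long noncoding RNA. In replicate order, shCtrl libraries held 73, 67 and 62 counts of it and shmiR155HG libraries held 28, 19 and 10. All shmiR155HG libraries were below all shCtrl libraries, and the silenced group was the more uneven, with a coefficient of variation of 42.3% against 8.75%. The mean fell from 1.77 ± 0.154 CPM (SD, n = 3) to 0.509 ± 0.215 CPM (SD, n = 3), which is −1.78 ± 0.43 on the log2 scale (SE; adjusted p = 0.0045, edgeR quasi-likelihood test). The 95% interval ran from −2.62 to −0.94, around a fitted remainder of 29.2% of the shCtrl level. Summed over the libraries of a group, the RNA gave 202 counts (exact Poisson 95% interval 175 to 232) in shCtrl and 57 counts (43.2 to 73.9) in shmiR155HG. These intervals cover counting error only, and are too narrow if a count stands for less than a read. Ordered by log2 fold change from the lowest, MIR155HG stood 12th of the 12263 genes. JAK3, the kinase gene that the study places downstream of MIR155HG, fell from 97.4 ± 3.16 to 74.4 ± 3.68 CPM (SD, n = 3; log2 fold change −0.39 ± 0.06, adjusted p = 1.2e-05, edgeR quasi-likelihood test).

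The genes whose profile over the 6 libraries was most like that of MIR155HG, by the root mean square difference of log2 CPM centred on the shCtrl mean, were RCAN2, NRXN3 and KCNU1. RCAN2, a calcineurin regulator, had 407, 352 and 379 counts in shCtrl and 121, 113 and 77 in shmiR155HG, a root mean square difference from MIR155HG of 0.217. NRXN3, a neurexin, had 56, 45 and 38 against 17, 10 and 4 counts (0.251), and KCNU1, a potassium channel, had 69, 62 and 60 against 25, 24 and 16 counts (0.318). In each of them the groups were apart and shmiR155HG replicate 3 was the lowest library. The genes were picked for their likeness to MIR155HG over these same libraries, so this follows from the choice and is no separate result.

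MIR3142HG, the host of miR-146a, which is known to restrain NF-kB signalling through IRAK1 and TRAF6, had 577, 627 and 566 counts in shCtrl and 591, 503 and 455 in shmiR155HG. The groups overlapped, since shmiR155HG replicate 1 lay above 2 of the shCtrl libraries after scaling. The means were 15.5 ± 1.46 and 14.1 ± 1.16 CPM (SD, n = 3), and the log2 fold change of −0.14 (95% interval −0.38 to 0.10, adjusted p = 0.51, edgeR quasi-likelihood test) did not pass the test. It was −0.06 without shCtrl replicate 2 and −0.21 without shmiR155HG replicate 1.

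MIR17HG, whose cluster is known for promoting lymphocyte proliferation, had 761, 652 and 593 counts in shCtrl and 816, 725 and 643 in shmiR155HG. After scaling, the shmiR155HG libraries reached up to 21.2 CPM and the shCtrl libraries lay at 15.2 to 19.5 CPM. The groups overlapped because shCtrl replicate 1 was above shmiR155HG replicates 2 and 3. The log2 fold change was 0.18 (95% interval −0.04 to 0.40, adjusted p = 0.33, edgeR quasi-likelihood test), and 0.087 without shCtrl replicate 3. MYC, known to drive this host, was higher in shmiR155HG, at 483 ± 6.43 against 383 ± 20.8 CPM (SD, n = 3; log2 fold change 0.33, adjusted p = 1.6e-07, edgeR quasi-likelihood test), and E2F1, a target of the cluster that also drives it, was lower (log2 fold change −0.21, adjusted p = 0.00017, same test).

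MIR222HG, the host of miR-221 and miR-222, which are known for repressing CDKN1B and KIT, had 246, 218 and 270 counts in shCtrl and 274, 296 and 273 in shmiR155HG. Every shmiR155HG library was above every shCtrl library after scaling, by a narrow margin of 7.13 against 6.92 CPM at the closest. The means of 6.40 ± 0.481 and 7.68 ± 0.516 CPM (SD, n = 3) gave a log2 fold change of 0.26 (95% interval −0.07 to 0.60), which did not pass the test (adjusted p = 0.34, edgeR quasi-likelihood test). The MIR221 hairpin overlaps the annotated exons of this host by 24 bases.

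MIR22HG, a stress-responsive host whose microRNA targets MAX, had 154, 120 and 124 counts in shCtrl and 152, 135 and 197 in shmiR155HG. The high mean of the silenced group came from replicate 3 at 5.88 CPM, while its replicates 1 and 2 lay at 3.96 and 3.54 CPM, within or near the shCtrl range of 3.18 to 3.95 CPM. The log2 fold change of 0.36 (95% interval −0.12 to 0.84, adjusted p = 0.37, edgeR quasi-likelihood test) fell to 0.11 without that library. MIR22HG overlaps WDR81 on the opposite strand, with no exon base in common.

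MIR181A1HG, the host of the miR-181 family that is known to tune antigen receptor signalling in developing T cells, had 19, 21 and 22 counts in shCtrl and 12, 64 and 36 in shmiR155HG. The silenced group thus held both the lowest and the highest library. It passed the filter only through shmiR155HG replicates 2 and 3, its coefficient of variation there was 67.0% against 8.75% in shCtrl, and its log2 fold change of 0.91 (95% interval −0.10 to 1.92, adjusted p = 0.27, edgeR quasi-likelihood test) did not pass the test. Without either of those libraries it dropped below the filter, and without replicate 1 the log2 fold change was 1.34 (adjusted p = 0.069, same test). With limma-voom it was 0.59 (adjusted p = 0.53).

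**Figure D2:**
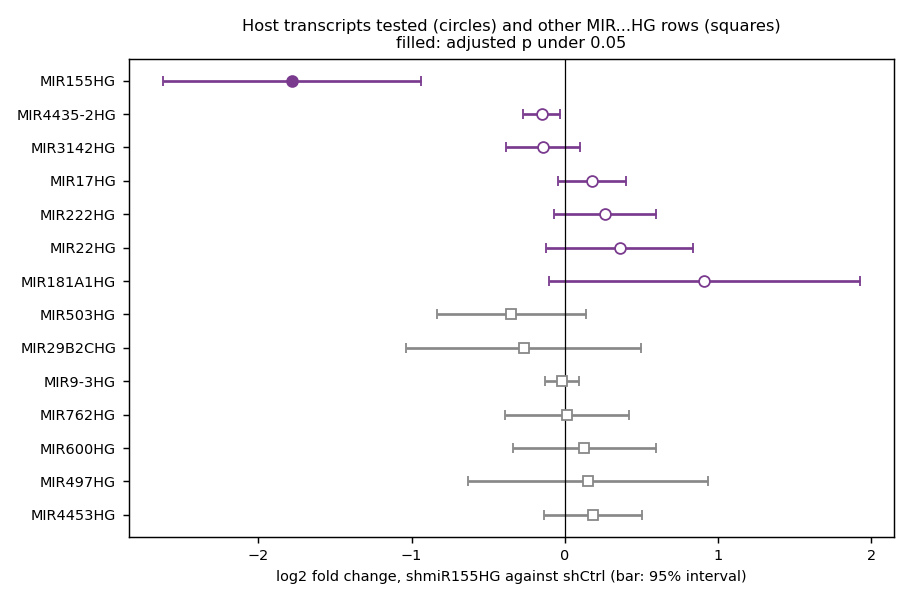
Log2 fold change of shmiR155HG against shCtrl (x axis, bars are 95% intervals) for the 7 tested host transcripts (circles) and for the 7 other rows with a MIR...HG symbol that passed the filter (squares); filled symbols have an adjusted p under 0.05. MIR155HG at −1.78 is the filled one, and the interval of MIR4435-2HG, −0.27 to −0.03, is the narrowest of the 7.

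MIR4435-2HG is a long noncoding RNA, and CYTOR, on the same chromosome, is a near-identical copy of part of it. It had 2345, 2200 and 2379 counts in shCtrl and 2114, 2096 and 1782 in shmiR155HG, the highest counts of the 9. Libraries agreed closely within a group: the level was 60.5 ± 0.434 CPM in shCtrl and 54.4 ± 1.04 CPM in shmiR155HG (SD, n = 3), and the groups did not overlap. The log2 fold change was −0.15 ± 0.06 (SE), which with an unadjusted p of 0.021 and an adjusted p of 0.10 did not pass the edgeR quasi-likelihood test. The 95% interval of −0.27 to −0.03 is not adjusted for the number of genes.

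The count of this gene is uncertain where it shares sequence with CYTOR. The canonical transcripts of CYTOR (1020 bases) and MIR4435-2HG (858 bases) share 1 block of 272 bases at 99.6% identity and 1 of 137 bases that are identical in both, and how many reads of these blocks were assigned to the wrong locus was not measured here. The identical block is shown as a stretch in which the letters do not tell the loci apart. It covers bases 1 to 137 of CYTOR and 47 to 183 of MIR4435-2HG, read from GENCODE v44 (hg38) in the sense direction.
shared block: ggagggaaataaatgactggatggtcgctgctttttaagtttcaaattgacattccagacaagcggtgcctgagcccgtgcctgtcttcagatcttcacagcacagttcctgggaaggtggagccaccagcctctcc
CYTOR had 1092, 928 and 1193 counts in shCtrl and 1006, 915 and 874 in shmiR155HG, and its log2 fold change was −0.14 ± 0.09 (SE; adjusted p = 0.36, edgeR quasi-likelihood test). The share of MIR4435-2HG in the sum of both lay between 66.6% and 70.3% in shCtrl and between 67.1% and 69.6% in shmiR155HG. When both rows were summed, the level was 88.5 ± 2.96 against 79.8 ± 1.19 CPM (SD, n = 3), and the difference on the log2 scale was −0.15 ± 0.05 (SE; adjusted p = 0.066, same test). The locus also shares exon bases with other counted genes, including 727 with BCL2L11 on the opposite strand and 297 with a long noncoding RNA gene on the same strand. The use of strand in counting is not given in the sources used here, and strand could not separate the same-strand overlap. BCL2L11, a pro-apoptotic BCL2 family gene, had a log2 fold change of −0.21 (adjusted p = 0.32, edgeR quasi-likelihood test).

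**Figure D3:**
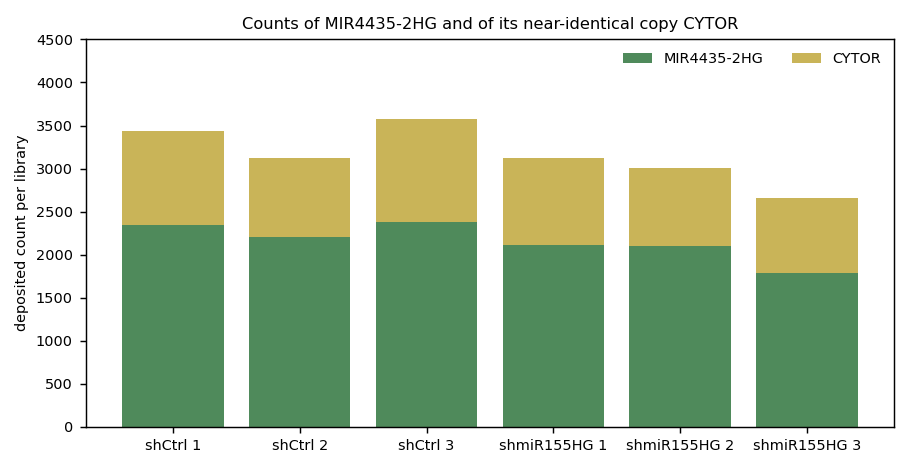
Deposited counts (y axis, from 0) of MIR4435-2HG and CYTOR stacked for each of the 6 libraries. The sum runs from 2656 counts in shmiR155HG replicate 3, the shallowest library, to 3572 in shCtrl replicate 3, and MIR4435-2HG makes up 66.6% to 70.3% of it throughout.

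The profiles most like that of MIR4435-2HG were those of EHBP1L1, ERAP2 and VPS25, with root mean square differences of 0.0104, 0.0139 and 0.0142 on the log2 scale over the 6 libraries. EHBP1L1 (log2 fold change −0.15, adjusted p = 0.014) and ERAP2, a peptide-trimming aminopeptidase of the endoplasmic reticulum (−0.14, adjusted p = 0.0037), passed the edgeR quasi-likelihood test at nearly the same size of change. VPS25, an ESCRT subunit with 1977, 1842 and 2011 counts in shCtrl and 1758, 1794 and 1516 in shmiR155HG, did not (−0.15, adjusted p = 0.15, same test). The like size of change follows from how these genes were chosen.

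MIR210HG, the host of the hypoxia-induced miR-210, had 14, 6 and 3 counts in shCtrl and 0, 3 and 5 in shmiR155HG. The groups overlapped and no library exceeded 0.359 CPM. The sums were 23 counts (exact Poisson 95% interval 14.6 to 34.5) and 8 counts (3.45 to 15.8). These intervals cover counting error only and not the spread between libraries, and are too narrow if a count stands for less than a read. A two-sided exact permutation test over the 6 libraries gave p = 0.3 (on log2 CPM with a pseudocount of 0.1). HIF1A, which drives this host in hypoxia, was at 228 CPM in shCtrl and 215 CPM in shmiR155HG and did not pass the test (log2 fold change −0.08, adjusted p = 0.17, edgeR quasi-likelihood test). MIR100HG, the host of miR-100, let-7a and miR-125b, had a single count, in shmiR155HG replicate 1. A count of 0 allows up to 3 counts per library, or 0.0769 to 0.0896 CPM, so no comparison was made for it.

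Levels of different hosts were compared per kilobase of the canonical transcript in shCtrl cells. On that scale MIR4435-2HG was the highest at 70.5 ± 0.505 CPM per kilobase (SD, n = 3), before MIR17HG at 23.5 ± 2.93, MIR3142HG at 7.03 ± 0.661 and MIR222HG at 4.64 ± 0.349. MIR22HG at 1.21 ± 0.146 and MIR155HG at 1.04 ± 0.0909 followed and were not apart beyond their spread. MIR181A1HG at 0.301 ± 0.0264 and MIR210HG at 0.0872 ± 0.063 were the lowest of those detected.

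This order rests on the length used. MIR4435-2HG has 108 annotated transcripts with 34231 exon bases in all, and MIR17HG has 16 with 12894, so per kilobase of all annotated exons they came to 1.77 and 1.36 CPM, below MIR3142HG at 6.52 and MIR222HG at 2.23. MIR155HG, with 2 annotated transcripts, hardly moved (0.994). In shmiR155HG cells MIR155HG stood at 0.299 ± 0.127 CPM per kilobase of the canonical transcript (SD, n = 3), below MIR181A1HG at 0.568 ± 0.381, 2 values that overlap within their spread.

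**Figure D4:**
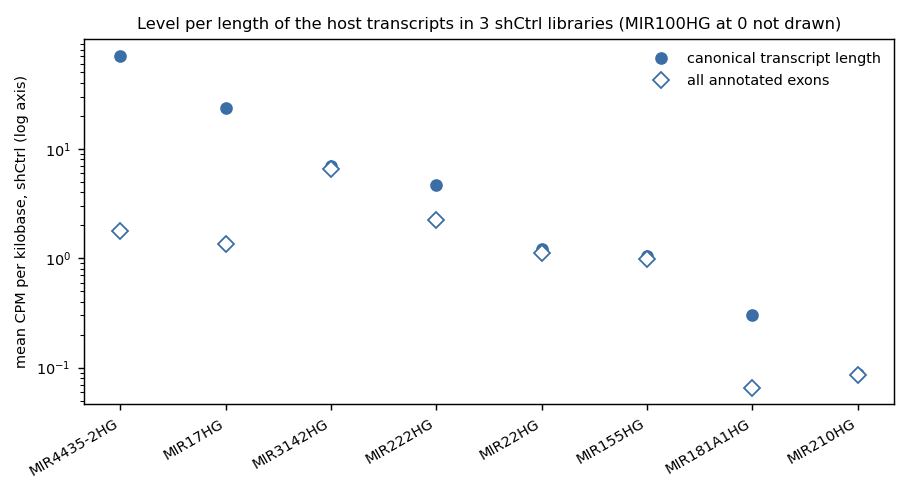
Mean CPM per kilobase in the 3 shCtrl libraries (y axis, log scale) of the 8 detected host transcripts, divided by the canonical transcript (filled circles) or by all annotated exons (open diamonds). MIR4435-2HG and MIR17HG drop from 70.5 and 23.5 to 1.77 and 1.36 with the longer length, and MIR155HG stays near 1.

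Promoter windows of RefSeq (GRCh38.p14) ran from 250 bases before to 50 after the RefSeq start. They were searched on both strands for letters of factors known to act on these hosts. The RefSeq start can differ from the gene positions given above, which are from GENCODE. The windows of MIR155HG, MIR22HG, MIR4435-2HG, MIR3142HG and MIR100HG lie inside the GENCODE spans of these genes. That of MIR3142HG begins at 160468001, while the GENCODE span begins at 160438594. TTCNNNGAA, the palindrome read by STAT proteins, was found in the windows of MIR155HG, MIR4435-2HG and 1 of 6 of MIR100HG, and in 7.66% of all 35116 windows. TGANTCA, the AP-1 letters, was in those of MIR155HG, MIR4435-2HG and MIR181A1HG and in 7.71% of all windows. GGGANNTTC, letters at the core of NF-kB sites, was in those of MIR3142HG and 1 of MIR100HG and in 4.18% of all windows, and CACGTG, the E-box that MYC reads, was in none of the windows of the 9 and in 7.26% of all. ACGTG, the core of hypoxia elements, which is part of the E-box letters, was in those of MIR155HG, MIR22HG, MIR210HG and 1 of MIR100HG and in 21.4% of all windows. The windows of MIR155HG (chr21:25561895-25562194, plus strand) and MIR3142HG (chr5:160468001-160468300, plus strand) are shown as those of the 2 best-known inflammatory hosts, with the STAT, AP-1 and NF-kB letters in capitals.
MIR155HG promoter: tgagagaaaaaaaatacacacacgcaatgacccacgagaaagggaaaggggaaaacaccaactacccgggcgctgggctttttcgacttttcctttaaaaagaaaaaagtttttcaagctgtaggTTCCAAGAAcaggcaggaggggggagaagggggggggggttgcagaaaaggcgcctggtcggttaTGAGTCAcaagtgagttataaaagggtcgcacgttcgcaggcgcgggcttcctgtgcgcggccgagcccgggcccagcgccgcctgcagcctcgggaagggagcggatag
MIR3142HG promoter: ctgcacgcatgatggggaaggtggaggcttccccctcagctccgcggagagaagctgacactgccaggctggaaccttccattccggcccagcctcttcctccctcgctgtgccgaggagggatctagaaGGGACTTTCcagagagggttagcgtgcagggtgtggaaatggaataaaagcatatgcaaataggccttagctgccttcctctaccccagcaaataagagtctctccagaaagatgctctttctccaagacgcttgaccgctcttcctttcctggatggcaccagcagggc
A match describes letters in this window only, and binding was not measured here. For MIR155HG, the study reported STAT3 binding by ChIP in a promoter segment that, in its own numbering, lies upstream of the window shown.

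Of 27 transcription factors known to drive these hosts, 24 were tested, and 3 were lower and 8 higher in shmiR155HG, with a median log2 fold change of 0.02. The share called was 45.8%, against 15.3% of all genes. The list was chosen with earlier results of these data known, and the difference in share was not tested. FOSB (log2 fold change 1.18, adjusted p = 0.029), JUND (0.57, adjusted p = 2.6e-11), FOSL2 (0.36, adjusted p = 0.00027) and FOS (0.36, adjusted p = 0.034), which are AP-1 members, were among the higher, and SMAD3, a TGF-beta mediator, was the lower one with the largest change (−0.37, adjusted p = 0.0087, all edgeR quasi-likelihood test). JUND rose from 278 ± 16.8 to 412 ± 8.74 CPM (SD, n = 3). FOSB was far less abundant, at 1.33 ± 0.749 CPM in shCtrl and 3.01 ± 0.0137 CPM in shmiR155HG (SD, n = 3). The SE of its log2 fold change was 0.37. STAT3, with 154 CPM in shCtrl and 156 CPM in shmiR155HG, did not pass the test, nor did STAT4, STAT5B, NFKB1, RELA, JUN or BATF. STAT5A was higher, at 134 CPM in shmiR155HG against 112 CPM in shCtrl (log2 fold change 0.26, adjusted p = 0.00055, edgeR quasi-likelihood test).

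Host genes outside the 9 were compared under the same contrast. The table holds 55 further rows with a MIR...HG symbol, 32 of them at 0 in every library, and of the 7 that passed the filter none was called in either direction. None of the 7 had an unadjusted p under 0.05 in edgeR's quasi-likelihood test, and DESeq2, limma-voom and the exact test called 0 as well. MIR9-3HG, the most abundant of them, had 3160, 2844 and 3049 counts in shCtrl and 3033, 2912 and 2635 in shmiR155HG, and its log2 fold change was −0.02 ± 0.06 (SE). MIR503HG had the lowest value, −0.35 ± 0.25 (SE; adjusted p = 0.39, edgeR quasi-likelihood test). Of 24 tested genes that carry a microRNA under another name, 2 were lower and 1 higher: ATAD2, a chromatin ATPase (log2 fold change −0.27, adjusted p = 1.4e-06), IARS2, the mitochondrial isoleucyl-tRNA synthetase (−0.18, adjusted p = 0.0028), and EVL, an actin regulator (0.33, adjusted p = 3.6e-07, all edgeR quasi-likelihood test). Their share of 12.5% called stands beside 15.3% of all genes.

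The nearest protein-coding gene on each side of the 9 hosts gave 18 neighbours, of which 12 were tested and 1 was called (8.33%, against 15.3% of all genes). PTPRC, which encodes CD45 and lies 20385 bases from MIR181A1HG, fell from 737 ± 12.2 to 621 ± 20.9 CPM (SD, n = 3; log2 fold change −0.25, adjusted p = 2.8e-06, edgeR quasi-likelihood test). No neighbour was higher at an adjusted p under 0.05 by edgeR, DESeq2 or limma-voom, and 1 was at an unadjusted p under 0.05 in edgeR. MRPL39, a mitochondrial ribosomal protein gene 10488 bases from MIR155HG, was at 27.8 CPM in shCtrl and 28.5 CPM in shmiR155HG (log2 fold change 0.04, adjusted p = 0.84, edgeR quasi-likelihood test).

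Among 16 microRNA processing genes, all tested, 2 were higher and none lower (12.5% called, against 15.3% of all genes). AGO2, the slicing Argonaute, rose from 184 ± 10.1 to 213 ± 4.96 CPM (SD, n = 3; log2 fold change 0.22, adjusted p = 0.00058), and DDX17, a helicase of the Drosha complex, had a log2 fold change of 0.13 (adjusted p = 0.0028, both edgeR quasi-likelihood test). No gene of this list was lower at an unadjusted p under 0.05 by edgeR, and DESeq2, limma-voom and the exact test called 0 lower. DROSHA, DGCR8, XPO5 and DICER1 lay between −0.01 and 0.06 on the log2 scale and did not pass the test.

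Textbook targets of the hosted microRNAs were described next. Of 55 genes, 47 were tested, 5 were lower and 8 higher (27.7% called, against 15.3% of all genes), and their median log2 fold change was 0.03. This list too was chosen with earlier results of these data known, and the difference in share was not tested. For miR-155, whose host was silenced, 2 of 9 tested targets were lower and 1 was higher. MYB, a haematopoietic transcription factor, had 1012, 928 and 1053 counts in shCtrl and 553, 599 and 638 in shmiR155HG, all below the controls (log2 fold change −0.67 ± 0.11 SE, adjusted p = 5.5e-05). PICALM, an endocytic adaptor, was lower as well (−0.24, adjusted p = 0.00018), whereas INPP5D, which encodes the phosphatase SHIP1, was higher (0.18, adjusted p = 0.0033, all edgeR quasi-likelihood test). SOCS1, a cytokine signalling inhibitor, had a log2 fold change of 0.20 and did not pass the test (adjusted p = 0.30, edgeR quasi-likelihood test).

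The targets of the other hosts moved in both directions. BMF, a pro-apoptotic target of miR-221 and miR-222, rose from 82.2 ± 5.24 to 125 ± 6.80 CPM (SD, n = 3; log2 fold change 0.60, adjusted p = 6.9e-09), while CDKN1B, with a log2 fold change of −0.21, did not pass the test (adjusted p = 0.086). Of the miR-146a targets, IRAK1 was higher (0.16, adjusted p = 0.0014, edgeR quasi-likelihood test). Of 8 tested miR-17-92 targets, E2F1 and SMAD4 were lower, none was higher by edgeR, DESeq2, limma-voom or the exact test, and 1 was higher at an unadjusted p under 0.05 in edgeR. HDAC4 for miR-22, E2F3 for miR-210, and PLK1 and PRDM1 for the MIR100HG microRNAs were higher, although MIR100HG and MIR210HG RNA was barely detected. No miR-181 target of 7 was called by edgeR, with 1 lower and 1 higher at an unadjusted p under 0.05, and DESeq2 called 1 higher.

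**Figure D5:**
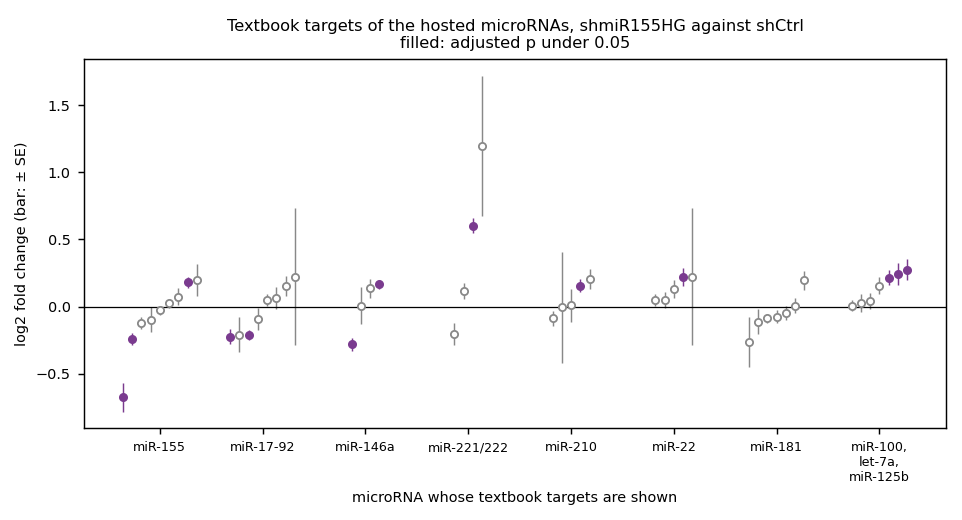
Log2 fold change (y axis, bars ± SE) of the tested textbook targets, grouped by the microRNA they belong to (x axis) and ordered by value within a group; a gene listed for both miR-17-92 and miR-22 is drawn under both. Filled points have an adjusted p under 0.05: MYB at −0.67 and BMF at 0.60 are those farthest from 0, and filled points stand on both sides of 0 for miR-155.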

How the data were processed

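Gene counts were analysed for 3 shCtrl and 3 shmiR155HG libraries of NK-92 cells. Per the labels and the methods, the authors sequenced poly(A) RNA, used HISAT2 to align reads to hg38, then StringTie, and merged the read count of each gene with prepDE.py3. They deposited these counts without normalization. Annotation release, strand setting and the read length given to prepDE.py3 are not given in the sources used here, and the last scales every count. The treatment labels of shmiR155HG replicates 2 and 3 name the gene with other numbers, so their titles were used.

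Counts were fitted over all genes with edgeR 4.0.16 in R 4.3.3 (quasi-likelihood test, robust, TMM) after leaving out genes that did not exceed 1 CPM in 2 or more libraries, with calls at a Benjamini-Hochberg adjusted p under 0.05. Intervals of log2 fold changes are normal 95% intervals from the SE. The test was checked on simulated data. DESeq2 1.42.0 and limma 3.58.1 served as alternatives, beside other scalings, filters, halved counts, a replicate block and each library left out in turn. Calls of edgeR's exact test used the study's rule, an unadjusted p under 0.01 and a change over 1.2-fold. Positions of genes and hairpins are from GENCODE v44, in which 36366 of the 36601 gene IDs were found, and transcripts were aligned with blastn. Promoter windows are from RefSeq. The members and gene lists were chosen with earlier results of these data known. The 9 hosts, their neighbours, called list genes with the largest change, CYTOR, JAK3 and the 3 most alike genes were named by rule, and other list genes after their values were seen. Some list genes are not reported here.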

Additional observations from a re-analysis of the deposited data

How the results depend on the processing

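In 15 alternatives, which changed the scaling, the filter, the test, the count unit or the set of libraries, 1 host transcript was called each time. The log2 fold change of MIR155HG lay between −2.13 and −1.52, lowest without shmiR155HG replicate 1 and nearest to 0 without replicate 3, with adjusted p from 0.0013 to 0.028 in edgeR, DESeq2 and limma-voom. No tested host transcript changed direction. Under the exact test with the study's thresholds, 551 genes were called higher and 466 lower, against 890 and 984 in the main test. The calls fell to 4 targets, 6 transcription factors, 0 processing genes and 0 neighbours. The study itself reported more genes in each direction than this exact test called, and why the counts differ was not tested. With 1 library left out in turn, calls ran from 578 to 891 genes higher, and from 6 to 9 transcription factors against 11, the lowest in each case without shmiR155HG replicate 2. With the replicate block, 1 host transcript, 829 genes higher and 909 lower were called, and no list count moved by more than 1.5 times. Same-numbered libraries correlated at −0.0005, −0.041 and −0.038 in their deviations from the group means. These values show no shared deviation by replicate number, but cannot tell whether same-numbered samples were handled together. Without a filter, MIR210HG had a log2 fold change of −1.38 ± 1.71 (SE) and MIR100HG 1.87 ± 2.23, fits that rest on 31 counts and 1 count. Of counts from 1 to 59, 53.4% were even, so a count may stand for less than a read; halved counts gave −1.78 for MIR155HG.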
